A study of Drosophila melanogaster with 4 samples.

Results

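The genes described here are abundant transcripts of Drosophila S2 cells whose read counts were moderately lower in KRB than in Schneider's medium. They were selected on the counts themselves: a gene was taken if it had at least 500 reads in each Schneider's library and if its summed KRB reads were above 0.2 and at most 0.8 of its summed Schneider's reads. Non-coding RNAs named by type, glutathione S-transferase, cytochrome P450, heat shock protein and ribosomal protein genes, and Indy were left out by symbol. This gave 151 genes (the members) of 2049 in the deposited table. Because the rule used the counts of all 4 libraries and this contrast, the lower values of the members in KRB are what chose them, and they are given below as a description without a test.

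S2 is a cell line derived from Drosophila embryos that resembles hemocytes, the blood cells of the fly. The cells were kept for 4 h either in Krebs Ringer bicarbonate (KRB), a buffered salt solution with glucose and without amino acids or serum, which is the starvation condition of the study, or in Schneider's medium with serum, in which they grow. KRB also holds more sodium than Schneider's medium, and the paper treats it as starvation combined with a moderate salt stress. The lack of amino acids, the lack of serum and the added sodium cannot be told apart in these libraries. Ribosomal RNA was removed and the remaining total RNA was sequenced from 2 biological replicates in each medium. The cells are wild type in both media, and only 1 cell line was used, so the values describe this line.

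Several processes that a proliferating cell line maintains at high level are represented among the members. To divide, a cell copies its DNA with the help of the MCM helicase and DNA polymerases, builds a spindle that attaches to kinetochores on the chromosomes, and separates the daughter cells by cytokinesis, which requires the central spindle and the chromosomal passenger complex. To grow, it makes ribosomes, which begins in the nucleolus with transcription of ribosomal RNA by RNA polymerase I and with the processing of this RNA by small nucleolar RNPs, and ends with the export of the subunits to the cytoplasm. In flies and other animals, both processes are known to depend on nutrients.

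The table holds a selection of genes, as none of the 723 tested genes that averaged 200 reads or more had a log2 fold change between -0.85 and 1.15. The reads on listed genes came to 1957713 and 2801713 in the KRB libraries and to 1108029 and 2414465 in the Schneider's libraries for replicates 1 and 2, and the full depth is unknown here. Library sizes were set by TMM in edgeR, and all log2 fold changes are KRB over Schneider's medium and relative to the other listed genes. These libraries do not measure RNA per cell, so fewer transcript-bearing cells and less RNA per cell cannot be told apart. The paper reports a general fall of RNA levels in KRB, which values relative to other listed genes cannot show. Of the hemocyte markers 3 of 18 were listed, namely eater, Ppn and Sr-CI, all at lower levels in KRB. In the wider list for hemocytes and extracellular matrix 5 genes (Mmp1, Pvf2, dlp, fon and peb) were called higher, so the listed genes of this kind did not move one way, and none of 7 markers of neurons, glia, muscle or germ line was listed. Genes outside the table are not analysed here, so the markers not listed say nothing about the cells. The part of the hemocyte markers in the results was not tested.

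The members took 74850 and 99830 reads in KRB, which was 3.82% and 3.56% of the reads on listed genes. In Schneider's medium they took 165826 and 368324 reads, which was 14.97% and 15.25%. The medians of their normalized counts (reads divided by the TMM library size and brought to the mean size of the 4 libraries) were 555 and 545 in KRB and 1166 and 1151 in Schneider's medium. The 2 libraries of a medium therefore gave nearly the same median. The media differed in the direction that the rule selects, although the rule used raw reads and the size here depends on the TMM scaling.

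All 151 members passed the filter on low counts, which their counts in Schneider's medium ensured. Their log2 fold changes ranged from -1.58 to -0.85 with a median of -1.03 and quartiles of -1.20 and -0.93. On the linear scale of normalized counts this was a median of 2.04-fold lower in KRB, with a range of 1.80-fold to 2.99-fold. The standard errors of the log2 fold changes had a median of 0.16. All 151 had both KRB libraries below both Schneider's libraries, as did 56.5% of the 1756 tested genes. The rule favoured this direction, so nothing is read from the count. In edgeR's quasi-likelihood test over the tested genes, 53.6% were lower and 42.3% higher in KRB with an adjusted p under 0.05, and these shares are the background for the pathway genes below. The authors chose the listed genes for their difference in the same 4 libraries, so calls and adjusted p values of listed genes, here and below, largely follow from that choice and are not independent evidence. The background also moved with the scaling. With relative log expression factors 10.1% were called lower and 42.7% higher, and DESeq2 called 5.07% lower and 41.8% higher. The lower of the Schneider's values divided by the higher of the KRB values had a median of 1.81 among members and exceeded 1.5 in 140 and 2 in 43 of them.

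**Figure D1:**
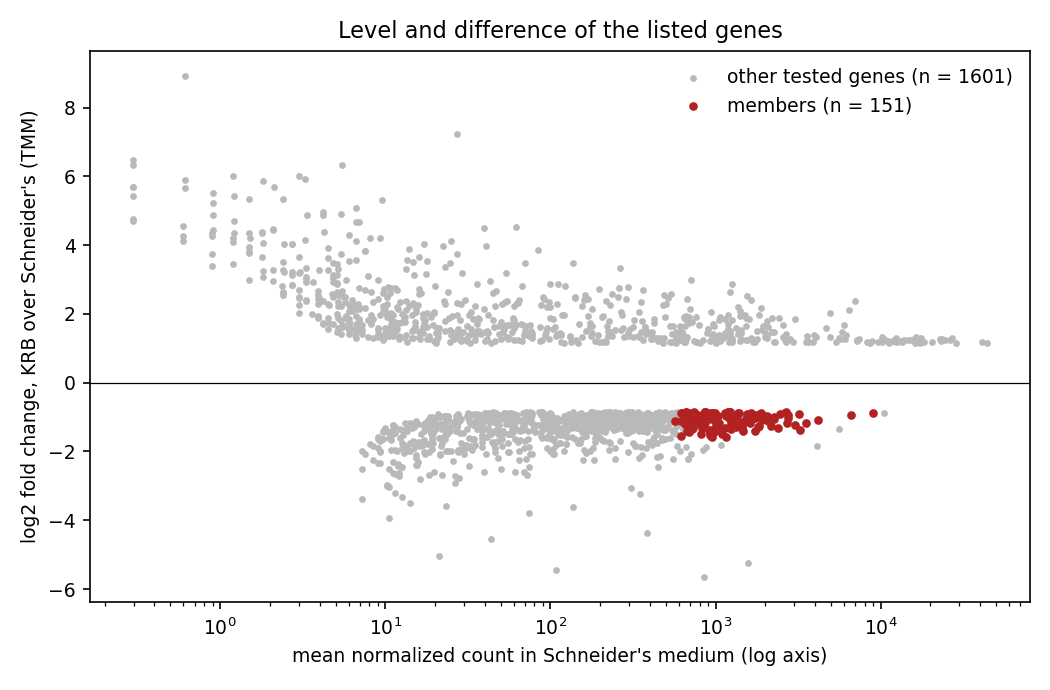
Log2 fold change (KRB over Schneider's, vertical axis) against the mean normalized count in Schneider's medium (horizontal log axis) for 151 members (red) and 1601 other tested genes (grey). Another 4 tested genes with no read in Schneider's medium cannot be shown on the log axis. The members form the abundant end of the lower band, between -1.58 and -0.85, and the empty band around 0 shows that the table is a selection.

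In the plot of level against difference, the members occupy a narrow band. The 841 other tested genes with both KRB libraries below both Schneider's libraries had a median log2 fold change of -1.22, and the 177 genes that were as abundant but had a ratio above 0.8 had a median of 1.31. As a description only, since the rule confines both the log2 fold change and the count of the members, Spearman's rho of the log2 fold change over the 151 genes, which share their libraries, was 0.09 with exon length, 0.14 with gene length and -0.06 with the Schneider's level per kilobase of exon.

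The limits of the rule differ in what they separate. At the lower limit of the ratio, nesd (0.224) and CG9641 (0.235) were just inside, and CG1969 (0.198) and Drat (0.194) just outside. At the upper limit the table has a gap: the highest ratios inside were 0.393 for CG9143 and 0.392 for Uhg5, and the next ones outside were 1.47 for Gp93 and 1.49 for fray. The limit of 0.8 therefore lies in an empty range of the table. This range goes with the selection of listed genes described above, so it does not show that the members are a separate class. At the count limit, DNA-ligI had 503 and Fancd2 505 reads in Schneider's replicate 1, while CG31759 with 496 and Rrp40 with 494 fell outside. Leaving out by symbol concerned 3 genes in the range, Indy, CR42862 and CR43264.

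The most abundant members were HmgD, CG1943, pav, emc, rump, CG5346, hoip, asp, sip2 and alphaTub84D. HmgD, a chromatin protein of the high mobility group that bends DNA, had 4731 and 4965 normalized counts in KRB, against 7509 and 10503 in Schneider's medium. CG1943 had 3336 and 3482 in KRB and 6221 and 6975 in Schneider's medium. The groups did not overlap in either gene. This held for all 151 members on the TMM scale, but for 113 with relative log expression factors. It largely goes back to their choice, depends on the scaling and is stated below for the TMM scale as a description only. For HmgD the Schneider's replicates lay further apart than the KRB replicates. Per kilobase of exon, the scale on which levels of different genes can be compared, hoip had the highest level in Schneider's medium with 2134 in KRB and 4982 in Schneider's medium, followed by CG1943 with 2527 in KRB and 4891 in Schneider's medium. Cubn, the fly cubilin, had the lowest level of all members in both media with 40.3 per kilobase in KRB and 101 in Schneider's medium.

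Members with a known role were sorted into 7 groups after their values were seen. These groups hold 71 members, and 80 members remain, 52 of them listed with a CG number as symbol. The groups had similar median log2 fold changes, from -0.92 for 4 chromatin genes to -1.10 for 18 genes of the spindle, kinetochore and cytokinesis, and the 80 others had a median of -1.03. Differences between the groups were not tested, because the rule bounds all values.

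The 18 members of spindle, kinetochore and cytokinesis summed to 13914 and 14106 normalized counts in KRB and to 27160 and 32861 in Schneider's medium. Their log2 fold changes ranged from -1.58 to -0.85, the full width of the members, as nesd had the lowest value of all 151 and aurB one of the highest.

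At cytokinesis, pav, the kinesin of the centralspindlin complex that sets the division plane, had 1959 and 2020 normalized counts in KRB and 3827 and 4561 in Schneider's medium. Its log2 fold change was -1.08 with a standard error of 0.16. It was the most abundant member of this group by count, and its replicates lay close together in KRB. The centralspindlin-binding protein nesd (nessun dorma) had 330 and 304 in KRB, against 890 and 1008 in Schneider's medium, and was 2.99-fold lower. The gene feo, the fly PRC1 that bundles the microtubules of the central spindle, had 529 and 579 in KRB and 1373 and 1576 in Schneider's medium. Klp3A, a kinesin of the same structure, had 1023 and 939 in KRB and 2136 and 2089 in Schneider's medium. None of these genes overlapped between the media, and the KRB values of nesd lay furthest from its Schneider's values.

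The chromosomal passenger complex, whose kinase corrects wrong attachments of chromosomes to the spindle, was represented by its kinase aurB, by borr (Borealin) and by the kinesin sub that acts with it in the oocyte. The kinase aurB had 639 and 690 normalized counts in KRB, against 981 and 1408 in Schneider's medium. For borr the values were 382 and 477 in KRB and 838 and 1176 in Schneider's medium. The related kinase aurA, which acts at centrosomes, had 314 and 395 in KRB and 768 and 1054 in Schneider's medium. In all of them Schneider's replicate 2 was the highest library, and the log2 fold changes were -0.85 for aurB, -1.23 for borr and -1.36 for aurA.

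Of the kinetochore and the spindle checkpoint, which delays anaphase until all chromosomes are attached, the members included rod, BubR1, mad2, Spc105R and Cenp-C. BubR1 had 970 and 952 normalized counts in KRB and 1651 and 2157 in Schneider's medium. The checkpoint gene mad2 had 561 and 492 in KRB and 940 and 992 in Schneider's medium. The checkpoint gene rod, whose protein recruits dynein to kinetochores, had 1337 and 1256 in KRB and 2172 and 2733 in Schneider's medium. Their log2 fold changes were -0.99, -0.88 and -0.92, in the upper part of the group. The inner kinetochore protein Cenp-C and the microtubule-binding platform Spc105R had log2 fold changes of -1.10 and -0.96, both named here after their values were seen.

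At the spindle poles, asp, the fly counterpart of the microcephaly gene ASPM, had 1165 and 1219 normalized counts in KRB and 2362 and 3054 in Schneider's medium. The centriole gene ana3 had 645 and 562 in KRB and 1259 and 1619 in Schneider's medium. The spindle-orienting gene mud, the fly NuMA, had 791 and 746 in KRB and 1783 and 1878 in Schneider's medium. For mud the exons overlap an antisense RNA gene over 98.6% of their length, and whether the authors' counting used strand is not stated, so that its reads and those of the antisense gene cannot be told apart. Cap-D2, a subunit of condensin, had 667 and 734 in KRB and 1280 and 1727 in Schneider's medium. The kinesin gene Klp67A had 690 and 709 in KRB and 1243 and 1457 in Schneider's medium. In each of these the lowest Schneider's library remained above the highest KRB library.

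**Figure D2:**
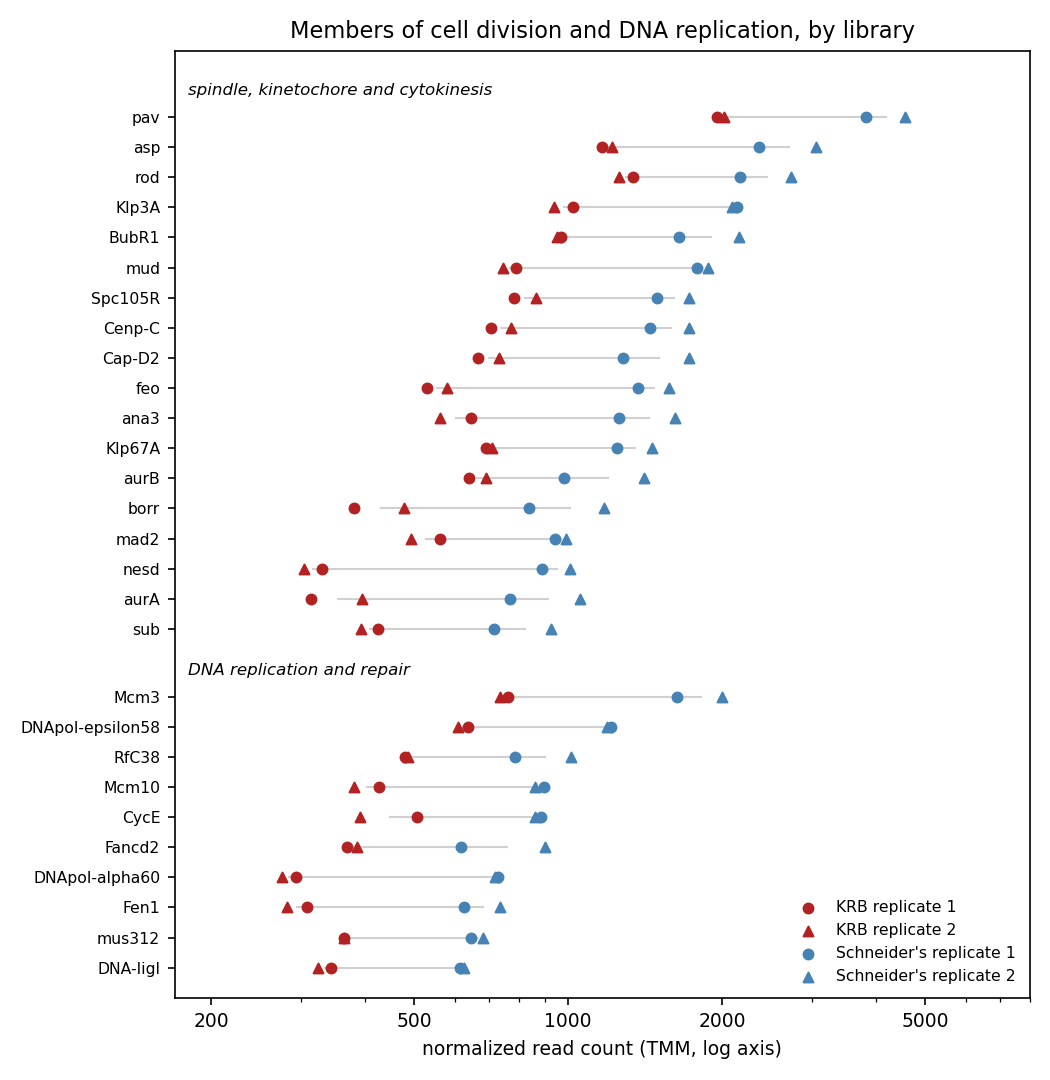
Normalized read counts (horizontal log axis) of 18 members of spindle, kinetochore and cytokinesis and 10 members of DNA replication and repair, 1 gene a line. Red symbols are the KRB libraries and blue symbols the Schneider's libraries, with a circle for replicate 1 and a triangle for replicate 2, and the grey line joins the means. No gene overlaps between the media on the TMM scale. In 17 of the 18 genes of the upper group the blue triangle lies right of the blue circle.

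As the plot of the division genes shows, Schneider's replicate 2 lay above Schneider's replicate 1 in 17 of the 18 members of spindle, kinetochore and cytokinesis, with a median log2 ratio of 0.29. The KRB replicates showed no such shift, with 10 of 18 genes higher in replicate 2 and a median log2 ratio of 0.04. Over all 151 members, Schneider's replicate 2 was the higher one in 90. The size of the difference between the media in this group thus depended on the Schneider's library. With the libraries compared by replicate number, its median log2 ratio of KRB to Schneider's medium was -0.97 for replicate 1 and -1.21 for replicate 2.

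DNA replication and repair had 10 members, with a median log2 fold change of -0.98. Mcm3, a subunit of the replicative helicase, had 763 and 737 normalized counts in KRB, against 1629 and 2002 in Schneider's medium. DNApol-alpha60, the primase subunit that starts new strands (Prim2 in the annotation), had 294 and 276 in KRB and 730 and 719 in Schneider's medium, and had the lowest log2 fold change of the group, -1.35. CycE, the cyclin that drives entry into S phase, had 506 and 392 in KRB and 883 and 863 in Schneider's medium. Among these genes the KRB replicates of CycE lay furthest apart. Fen1, the nuclease that trims Okazaki fragments, and DNA-ligI, the ligase that joins them, had log2 fold changes of -1.21 and -0.89. The clamp loader subunit RfC38 had -0.90, the polymerase subunit DNApol-epsilon58 -0.95, the initiation factor Mcm10 -1.12 and the crosslink repair gene Fancd2 -1.01. The endonuclease scaffold mus312 had -0.87, but its reads were also assigned to CG42307. Of these genes, only Mcm3, CycE, DNA-ligI and Fancd2 were named by rule, and the others were named after their values were seen.

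Ribosome biogenesis and RNA processing had 20 members, summing to 12051 and 13073 normalized counts in KRB and to 26142 and 26022 in Schneider's medium. Their median log2 fold change was -0.99, from -1.55 for CG7246 to -0.86 for Nmd3. The summed level was thus lower in both KRB libraries, and it differed less between the replicates than between the media. Of the RNA polymerase I subunits, RpI135 (Polr1B) had 871 and 931 normalized counts in KRB, against 2270 and 2064 in Schneider's medium. CG18600 (Polr1E) had 361 and 460 in KRB and 777 and 789 in Schneider's medium. Their log2 fold changes were -1.26 and -0.93, and the lower Schneider's value was above the higher KRB value in both. Of the RNA-binding subunits of small nucleolar RNPs, hoip, which is also a spliceosomal protein, had 1195 and 1396 in KRB and 2838 and 3210 in Schneider's medium. NHP2 had 666 and 690 in KRB and 1409 and 1580 in Schneider's medium. The groups did not overlap for any of these 4 genes. Their replicates lay furthest apart for CG18600 in KRB, with a log2 ratio of 0.35. Over all members the absolute ratio in KRB had a median of 0.12.

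Further members act in the assembly of the subunits. CG1234 (Noc3) and CG9246 (Noc2), nucleolar partners in the assembly of the large subunit in yeast, had log2 fold changes of -1.05 and -0.94. Nmd3, the adaptor that exports the large subunit from the nucleus, had 1473 and 1465 normalized counts in KRB and 2752 and 2575 in Schneider's medium. Its media did not overlap. The small subunit factors wcd and bys had log2 fold changes of -1.17 and -0.87, and the GTPase gene Ns3 had -0.87. CG7246, which is in the ribosome biogenesis list by its annotation, had 227 and 193 in KRB and 648 and 586 in Schneider's medium, the lowest KRB counts among all members. The nucleolar gene mbm had -1.20, the histone demethylase gene CG2982 (NO66) -1.48 and the exosome subunit genes Mtr3 and Rrp45 -0.92 and -0.87. Of the RNase P and MRP subunits, l(1)G0045 (Pop1) had -0.88 and CG34317 (Rpp14a), whose reads are shared with CG7950, -1.08. These last 6 genes and CG9246 were named after their values were seen.

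In the ribosome biogenesis genes Schneider's replicate 2 was above replicate 1 in 8 of 20 genes with a median log2 ratio of -0.05, whereas KRB replicate 2 was above KRB replicate 1 in 17 of 20 with a median of 0.10. In other groups the median log2 ratio of Schneider's replicate 2 to replicate 1 was 0.35 for the 4 chromatin genes, 0.21 for the 5 genes of the cell surface and secreted proteins, 0.10 for the piRNA pathway, 0.09 for mitochondria and metabolism and 0.05 for DNA replication and repair. The groups of roles thus differed in which replicate was higher, by less than the difference between the media, and these shifts were not tested. The plot of replicate ratios shows these shifts for all groups.

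**Figure D3:**
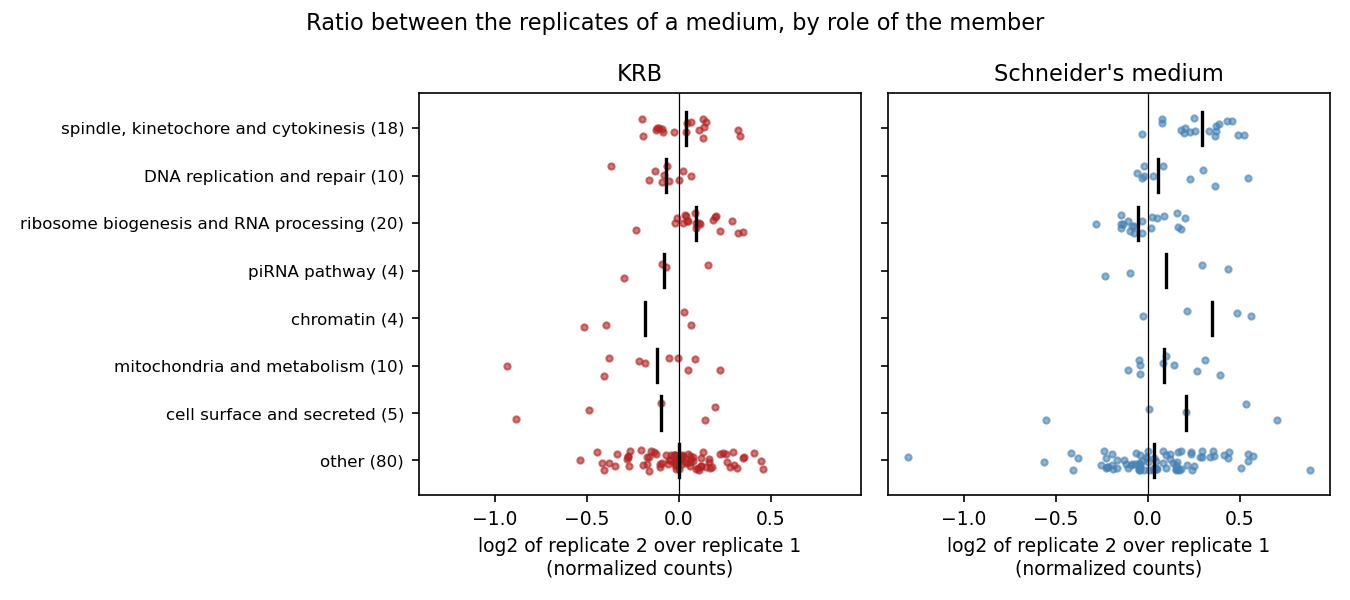
Log2 ratio of replicate 2 to replicate 1 (horizontal axis, normalized counts) for each of the 151 members, by role, in KRB (left) and in Schneider's medium (right). Points are genes, black bars are group medians and numbers in brackets are gene counts. In Schneider's medium the spindle group lies right of 0 in 17 of 18 genes with a median of 0.29, while the ribosome biogenesis group has a median of -0.05.

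Uhg5, the only non-coding RNA among the members, is a host transcript whose introns give rise to small nucleolar RNAs. It had 331 and 382 normalized counts in KRB and 718 and 591 in Schneider's medium, a log2 fold change of -0.87. The annotation places 11 small nucleolar RNA genes within it, of which 8 were listed and 7 tested, and their log2 fold changes ranged from -3.92 to -1.17. All were lower than the value of the host, but they rested on 27 reads or fewer in each library.

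The 4 genes of the piRNA pathway, which silences transposons mainly in the gonad, had log2 fold changes between -1.44 and -0.98. The Piwi protein gene aub had 476 and 447 normalized counts in KRB and 813 and 1100 in Schneider's medium. The Tudor domain gene tej had 399 and 325 in KRB and 1058 and 901 in Schneider's medium. The other Tudor domain genes vret and BoYb had log2 fold changes of -0.98 and -1.04. All 4 were named after their values were seen, and their groups did not overlap.

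In chromatin, HmgZ, the paralogue of HmgD, had 1230 and 934 normalized counts in KRB and 1818 and 2679 in Schneider's medium. HmgZ and HmgD lie on opposite strands of chromosome 2R, HmgZ from 21697488 to 21707861 and HmgD from 21701458 to 21716727 in the BDGP6 annotation, with overlapping bodies but without a shared exon. Their log2 fold changes were -1.06 and -0.89. The remodeller gene Chd3 had 778 and 545 in KRB and 1205 and 1184 in Schneider's medium. The tumour suppressor gene l(3)mbt, named after its values were seen, had 982 and 1000 in KRB and 1762 and 2043 in Schneider's medium. In HmgZ and Chd3 the KRB replicates lay further apart than in most members.

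Of the 10 members of mitochondria and metabolism, Men, the malic enzyme, had 1224 and 1053 normalized counts in KRB, against 2284 and 2220 in Schneider's medium. CG5991 (Pisd), which makes phosphatidylethanolamine in mitochondria, had 894 and 953 in KRB and 1718 and 1818 in Schneider's medium. Gk1, a glycerol kinase, had 379 and 443 in KRB and 641 and 840 in Schneider's medium, close to the upper end of the members with a log2 fold change of -0.85. The media did not overlap in any of these genes. The mitochondrial quality control kinase Pink1 had 607 and 630 in KRB and 1342 and 1437 in Schneider's medium. Etf-QO, an electron carrier of fatty acid and amino acid oxidation, had a log2 fold change of -1.42. CG2118 (Mccc1), a carboxylase subunit of leucine breakdown, had -1.26. The ketone body enzyme SCOT, with -1.02, and the GABA transaminase Gabat, with -1.21, also take part in the breakdown of small molecules. These genes and Pink1 were named after their values were seen. For Gabat the KRB replicates were 371 and 194, against 661 and 642 in Schneider's medium, and without KRB replicate 2 its log2 fold change was -0.79.

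At the cell surface and among secreted proteins there were 5 members. The phagocytic receptor gene eater, a hemocyte marker, had 503 and 273 normalized counts in KRB, against 1200 and 818 in Schneider's medium. Its log2 fold change was -1.38 with a standard error of 0.33, the replicates of both media lay far apart, and the media did not overlap. The insulin-like peptide gene Ilp6 had 832 and 953 in KRB and 1655 and 1912 in Schneider's medium. The calcium channel subunit gene stj had 1035 and 969 in KRB and 1426 and 2317 in Schneider's medium. The log2 fold changes were -0.999 for Ilp6, -0.90 for stj, -1.33 for Cubn and -0.87 for Tsp (thrombospondin), all named after their values were seen.

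**Figure D4:**
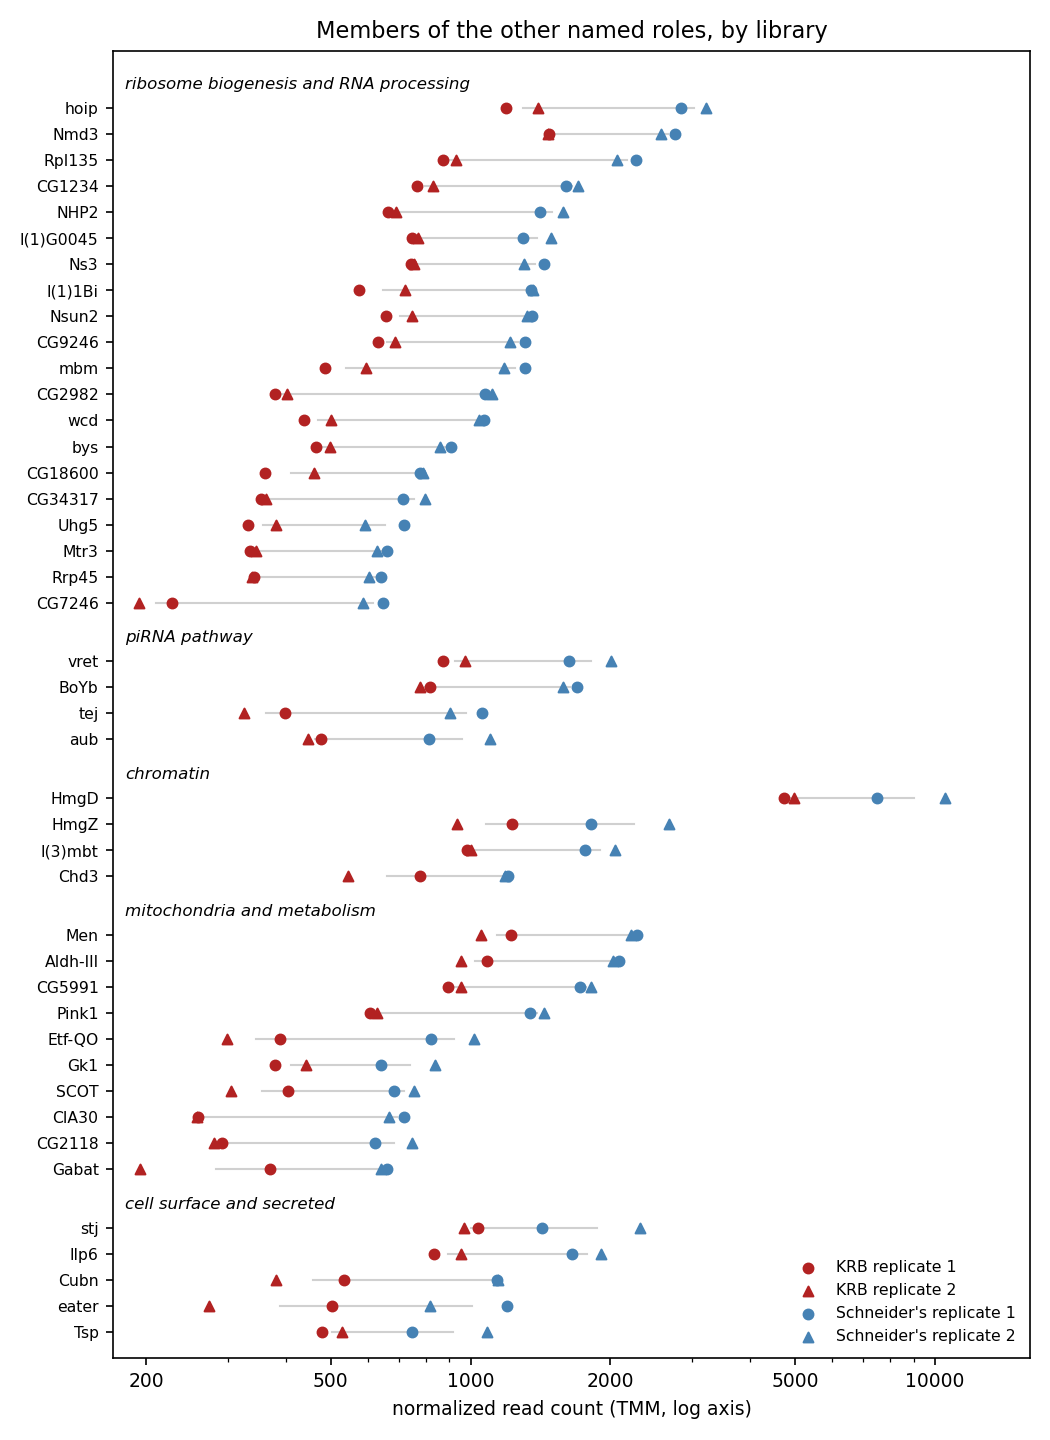
Normalized read counts (horizontal log axis) of the members of ribosome biogenesis and RNA processing (20), the piRNA pathway (4), chromatin (4), mitochondria and metabolism (10) and the cell surface and secreted proteins (5). Red symbols are the KRB libraries and blue symbols the Schneider's libraries, with a circle for replicate 1 and a triangle for replicate 2, and the grey line joins the means. HmgD has the highest counts, and the red symbols lie left of the blue symbols in every gene shown.

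The plot of the other roles shows the same separation for these 43 genes. Of the 80 members outside the groups, several have a known function. The helix-loop-helix inhibitor gene emc, which binds proneural transcription factors, had 1587 and 1526 normalized counts in KRB and 3800 and 3246 in Schneider's medium. The tubulin gene alphaTub84D had 1495 and 1393 in KRB and 2787 and 2725 in Schneider's medium. The RNA-binding protein gene rump had 1736 and 1658 in KRB and 2928 and 3456 in Schneider's medium. These 3 genes are among the 10 most abundant members, with log2 fold changes of -1.18, -0.93 and -0.91. Elp2, a subunit of the Elongator complex that modifies transfer RNAs, had 382 and 403 in KRB and 1230 and 1094 in Schneider's medium. With CG9641 (-1.54) and CG4045 (-1.52), Elp2 (-1.56) was among the 5 lowest log2 fold changes, together with nesd and CG7246. The 5 highest were those of Tina-1, aurB, Gk1, CG9143 and Chd3, all at -0.85. Members in no group but in a list or among the most abundant were plx with -1.06, l(2)05287 with -0.94, CG5346 with -1.36 and sip2 with -1.03.

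A few members were less certain than the rest. With single libraries left out, the log2 fold change of 13 members moved by more than 1.5 times. Without Schneider's replicate 2 it was -0.51 for stj, -0.57 for Tsp and -0.56 for aurB, and without KRB replicate 1 it was -0.58 for CG18600 and -0.55 for Gk1. The library sizes were computed anew in each of these fits. The median of all tested genes thereby moved by 0.22 without KRB replicate 1 and by 0.15 without Schneider's replicate 2. Part of each move is therefore common to the tested genes and not particular to the member. CG15695, named after its values were seen, had 299 and 230 normalized counts in KRB, against 812 and 329 in Schneider's medium, so that its groups were separated by a ratio of 1.10 only. Its log2 fold change of -1.10 had the largest standard error of the members, 0.42, and was -0.32 without Schneider's replicate 1 and -1.62 without Schneider's replicate 2. Eip71CD (MsrA, a methionine sulfoxide reductase), also named after its values were seen, had 758 and 1041 in KRB and 1161 and 2137 in Schneider's medium, and its log2 fold change of -0.88 was -0.37 without Schneider's replicate 2 and -0.47 without KRB replicate 1. For the members as a whole the replicates were close: the absolute log2 ratio between replicates had a median of 0.12 in KRB and 0.16 in Schneider's medium, against 0.26 and 0.30 over all tested genes, which have lower counts. Among the 177 genes that were as abundant but had a ratio above 0.8, these medians were 0.18 in KRB and 0.24 in Schneider's medium.

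Some of the 151 genes share reads. Counts were equal or apart by at most 2 reads in every library within 4 sets holding 9 members, namely pre-mod(mdg4)-B, -G and -H, CG42516 and Pbp49, CG34317 and CG7950, and mus312 and CG42307. This leaves 146 distinct members, whose median log2 fold change was -1.04. The exons of 68 members overlap exons of another annotated gene, in 10 of them over more than 50% of their length, and without these 68 genes the median was -1.06. Another listed gene lies within or touches 34 members. Of 31 such genes that are no members, 29 were tested and 28 of these had a negative log2 fold change, the exception being CR45531 within CG14434 with 2.07. How far shared reads account for this was not tested.

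In features that the rule did not use, the 150 protein-coding members had a median exon length of 2329 nt and a median gene length of 2826 bp, and 7.33% had no intron. The 702 other tested protein-coding genes with both KRB libraries below both Schneider's libraries had a median exon length of 1507 nt and a median gene length of 1770 bp, and 15.2% had no intron. The count limit favours long transcripts, so these lengths are partly set by the rule. The 166 protein-coding genes that were as abundant but had a ratio above 0.8 had longer genes, with median lengths of 3001 nt and 5145 bp. On the X chromosome lay 34 of the 150 members (22.7%), against 18.9% of the 702 other lower genes and 15.7% of the 1712 listed protein-coding genes. The share was 11.4% of the 166 genes with a ratio above 0.8. Of the 20 ribosome biogenesis members 9 were on X, beside 3 of 18 in the spindle group and 2 of 5 at the cell surface. It was 1 of 10 both in DNA replication and in metabolism, 0 of 4 both in chromatin and in the piRNA pathway, and 18 of the 80 others. These shares are descriptions, and base composition and promoter sequence were not analysed here.

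Of 20 pathway lists, 10 held at least 1 of 37 members. Some listed genes of these lists are no members because they fell under the count limit. Others, among them Cdk1, trbl and Non1, were above the count limit and were kept out by the ratio limits. In the list for mitosis, spindle and chromosome condensation, 21 of 65 genes were listed, of which 13 are members. The other 8, Ndc80, Sas-4, Spc25, dgt4, Det, Grip128, Klp31E and cid, were all called lower in KRB with a Benjamini-Hochberg adjusted p under 0.05 in edgeR's test, as were 53.6% of all tested genes. These genes too were listed for their difference in these libraries, so the adjusted p values of this and the next paragraphs carry no independent evidence. Ndc80, the microtubule-binding subunit of the kinetochore, had 150 and 118 normalized counts in KRB and 387 and 449 in Schneider's medium, with a log2 fold change of -1.65 and an adjusted p of 0.00145. The centromeric histone gene cid had the value nearest to 0 with -0.85 and an adjusted p of 0.0162 in the same edgeR test. Under relative log expression factors 2 of these 8 genes were called lower, beside 10.1% of all tested genes, and DESeq2 also called 2, beside 5.07%.

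In the list for cell cycle and DNA replication, 14 of 70 genes were listed and 4 are members. Of the other 10, edgeR's test called 9 lower and 1 higher. Cdk2, the partner of CycE, and Cdk1, the mitotic kinase, had log2 fold changes of -2.17 and -1.97 with adjusted p values of 0.000784 and 0.000875 in edgeR's test. Both lie below the range of all members. Cdk1 had 618 and 1566 Schneider's reads, above the count limit, and was kept out by the lower ratio limit of 0.2. Its position below the members therefore follows from the rule. Cdk2 was under the count limit with 334 reads in Schneider's replicate 1. The others called lower were Sld5, ida, Cdc6, Cdk7, Rbf2, Psf2 and Chrac-14. The gene called higher was trbl, whose protein promotes the degradation of the mitotic activator String, with a log2 fold change of 1.30 and an adjusted p of 0.00104 in edgeR's test. It had 843 and 1743 Schneider's reads, above the count limit, so as a non-member its direction was largely set by the rule. The count of 9 lower genes became 4 under relative log expression factors and 3 under DESeq2, where 10.1% and 5.07% of all tested genes were called lower.

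In the list for ribosome biogenesis, 15 of 61 genes were listed and 11 are members. Of the other 4, edgeR's test called RpI12, Bka and l(2)37Cg lower and Non1 higher. RpI12, a small subunit of RNA polymerase I, had a log2 fold change of -1.39 with an adjusted p of 0.0022 in edgeR's test. The nucleolar GTPase gene Non1 was far more abundant, with 25216 and 25776 normalized counts in KRB and 9802 and 12332 in Schneider's medium, and had a log2 fold change of 1.20 with an adjusted p of 0.00233 in edgeR's test. Its 8027 and 20735 Schneider's reads were above the count limit, so as a non-member its direction was largely set by the rule. Of the 3 lower calls, 1 was made under relative log expression factors and 0 under DESeq2, beside the same 10.1% and 5.07% of all tested genes.

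**Figure D5:**
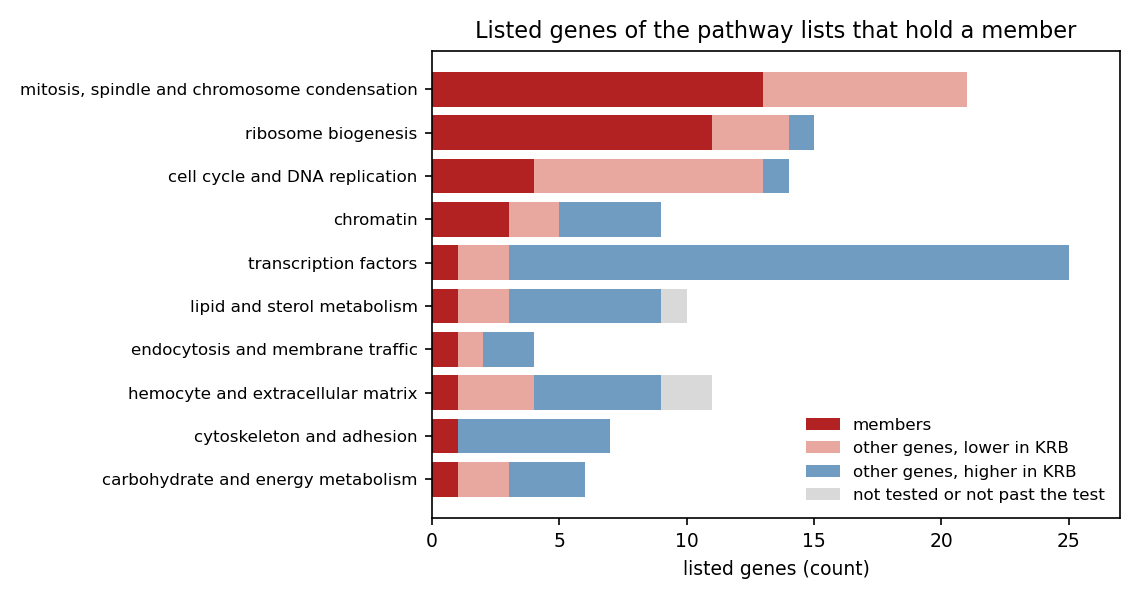
Number of listed genes (horizontal axis) in each of the 10 pathway lists that hold a member, split into members (dark red), other genes called lower in KRB (light red), other genes called higher in KRB (blue) and genes not tested or not past edgeR's test (grey). Members make up 13 of 21 genes of mitosis and 11 of 15 genes of ribosome biogenesis, but 1 of 25 transcription factors.

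The plot of the pathway lists shows that the other lists with members held genes of both directions. For abundant non-members the direction is partly set by the rule, as said above. For chromatin, with members HmgD, HmgZ and Chd3, 2 other genes were lower and 4 higher in KRB by edgeR's test. Among transcription factors, emc is the only member, and of 24 others 2 were lower and 22 higher. Lists with 1 member each were those for lipid and sterol metabolism (CG5991, with 2 others lower and 6 higher), for hemocytes and extracellular matrix (eater, with 3 lower and 5 higher), for carbohydrate and energy metabolism (Men, with 2 lower and 3 higher), for endocytosis and membrane traffic (plx, with 1 lower and 2 higher) and for cytoskeleton and adhesion (alphaTub84D, with 0 lower and 6 higher by edgeR). The remaining 10 lists, among them nutrient sensing, transport, secretion, autophagy, proteasome and innate immunity, held no member. Since unlisted genes of all lists are not analysed here, these counts describe the table and not the pathways as a whole.

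The size of all these differences depended on how the libraries were scaled. The median log2 fold change of the members was -2.01 with total counts, -0.57 with upper-quartile factors and -0.29 with relative log expression factors, against -1.03 with TMM. These settings moved the median of all tested genes by -0.97, 0.46 and 0.74, so the members kept a distance of about -0.11 to the median of all tested genes under each. All 151 members stayed negative under each of these scalings, with values up to -0.09. Both KRB libraries lay below both Schneider's libraries for 151 members with total counts, 149 with upper-quartile factors and 113 with relative log expression factors. Because the table holds only selected genes, no scaling was chosen from it, and each member's difference is given relative to the other listed genes. With TMM the range without tested genes averaging 200 reads or more ran from -0.85 to 1.15. The other scalings shift this range by about the amounts given above. The authors' filter is not given and their own log2 fold changes, which bear on the scaling, were not used.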

How the data were processed

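RNA of S2 cells was sequenced by the authors from 2 biological replicates in KRB and 2 in Schneider's medium. The authors mapped the reads to Dm6 with STAR 2.4.0.1, counted reads by transcript with an in-house script and deposited raw counts per gene symbol, without normalization. Use of strand and the filter that chose the 2049 listed genes are not given in the sources used here. The deposited log2 fold change and p-value columns hold the authors' own edgeR 3.24.3 comparison and were not used.

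The comparison used edgeR 4.0.16 under R 4.3.3 (filterByExpr, TMM, quasi-likelihood F-test, two-sided, Benjamini-Hochberg adjustment over 1756 tested genes). Normalized counts are counts divided by the TMM library size and multiplied by the geometric mean of the 4 sizes. Standard errors were taken as the absolute log2 fold change over the root of F. The p-values measure the spread between 2 replicates a medium only. Positions and overlaps come from the BDGP6 annotation, release 115, of the same assembly as Dm6, in which 132 members matched by symbol and 19 by synonym. Tables and plots used Python 3.11.15 with pandas 2.3.3, numpy 2.4.6 and matplotlib 3.10.9. Only the edgeR fit was tested on simulated counts. In these a minority of genes changed, in both directions, unlike in the selected table, so they do not test the scaling of these data.

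The members and pathway lists were chosen with earlier results of these data known, and the role groups after the values were seen. Genes named are the 10 members with the highest Schneider's counts, the 5 with the lowest and the 5 with the highest log2 fold change, members in a list, the 2 nearest each limit of the rule, and list genes that are no members. Others were named for their role and are said to be so. Alternatives were other scalings, no filter, DESeq2 1.42.0, a replicate block, each library left out in turn and, for the members, the rule on normalized counts and the removal of overlapping genes. Chosen after seeing the data were the removal of repeated rows and of members that touch another listed gene.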

Additional observations from a re-analysis of the deposited data

How the results depend on the processing

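The median log2 fold change of the members (-1.03 with TMM) was -0.29 with relative log expression factors, -0.57 with upper-quartile factors, -2.01 with total counts, -1.21 without the low count filter and -0.29 with DESeq2. With each library left out in turn it ranged from -1.10 to -0.86, without Schneider's replicate 1 and without KRB replicate 1. It was -1.06 without members whose exons overlap another gene and -1.05 with the rule on normalized counts, which took 194 genes, 150 of them members. Of the alternatives chosen after seeing the data, removal of repeated rows gave -1.04 and removal of members touching another listed gene gave -1.05. Genes called lower (942) numbered 178 with relative log expression factors, 547 with upper-quartile factors and 89 with DESeq2, and genes called higher (742) numbered 335 with total counts. By construction the scalings shift all values together. Of the list genes that are no members, 2 of mitosis (main 8), 4 of the cell cycle (main 9) and 1 of ribosome biogenesis (main 3) were lower under relative log expression factors, and 2, 3 and 0 under DESeq2. For the 84 named genes, 450 of 840 values under the alternatives moved by more than the spread between library pairs, 334 of them under another scaling or DESeq2, and 0 changed sign.

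With a replicate block the median was -1.03, and 1004 genes were lower and 751 higher. As a check of the pairing, the deviations of same-numbered libraries from their group means had a correlation of 0.284 over 1756 genes in 2 pairs. No source ties these libraries to one another beyond the number. With 2 libraries a medium, an exact permutation test of a single gene cannot give a p below 0.333. The full depth of the libraries and the genes outside the table are not analysed here, which limits every scaling to selected genes.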
